A study of Mus musculus with 6 samples.

Results

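The transcripts described here belong to the retinoid pathway of the mouse descending colon. They are 9 genes taken by name: the retinol-binding protein gene Rbp2, the dehydrogenase and reductase genes Adh1, Rdh10 and Dhrs3, the retinaldehyde dehydrogenase genes Aldh1a1, Aldh1a2 and Aldh1a3, and the retinoic acid receptor genes Rara and Rarb. All 9 were found among the 55849 genes of the count table, and all 9 were among the 16107 genes with enough counts to be tested. RNA came from descending colon of untreated C57BL/6 wild-type mice and Muc2-/- mice of 12 weeks, with 3 libraries in each group. Muc2 encodes the gel-forming mucin of colonic mucus, and its loss in mice serves as a colitis model. The labels do not describe the Muc2 allele, the sex of the mice or whether the groups were littermates, and they do not say how many animals a library holds. P-values therefore measure the spread between these libraries. Values by library are always given in the order of replicates 1, 2 and 3.

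Vitamin A reaches cells as retinol or is made from plant carotenoids. Inside the cell it is oxidised in a reversible step to retinaldehyde and then irreversibly to retinoic acid. Retinoic acid binds nuclear receptors that sit on DNA as partners of retinoid X receptors, and enzymes of the Cyp26 family clear it. In the gut, retinoic acid made by epithelial, stromal and dendritic cells is known for its part in the homing of lymphocytes, in IgA responses and in epithelial differentiation.

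Receptor binding sites in DNA are typically direct repeats of a 6-base motif. Promoter windows from RefSeq (build GRCm38.p6), which run from 250 bases before to 50 bases after a transcript start, were matched by symbol for 7 of the 9 genes, with 13 windows in all. Rdh10 and Aldh1a3 had no window. Both strands were searched for pairs of the motif AGGTCA, its variant AGTTCA, its variant GGGTCA or its variant GGTTCA, with 5 bases between them (a repeat named DR5) or 2 bases between them (DR2). Rarb was the 1 member with a DR5, and 0 members had a DR2. A DR5 of these letters lies in 0.0974% of all 32851 windows, and a DR2 in 0.268%. Among the other retinoid genes listed below, Cyp26a1, which encodes a retinoic acid hydroxylase, also had a DR5. The repeats are shown because Rarb is both a receptor of the pathway and a textbook target of retinoic acid. Each line gives 30 bases, 5′ to 3′ on the gene's own strand, with the whole repeat in capitals.
Rarb: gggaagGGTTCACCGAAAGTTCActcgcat
Cyp26a1: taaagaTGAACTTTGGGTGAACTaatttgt

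In GRCm38.p6 the Rarb stretch is chr14:16575506-16575535 on the minus strand, with the repeat from 53 to 37 bases before the start. The Cyp26a1 stretch is chr19:37697770-37697799 on the plus strand, with the repeat from 32 to 16 bases before the start and its motifs reading on the opposite strand. A match of letters is a description and does not show that a receptor binds there.

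Depth was similar across the libraries, from 16395432 to 20336459 counts. Muc2 itself was counted in every library, at 2480 to 6977 CPM in the wild-type libraries and 757 to 1021 CPM in Muc2-/-, where CPM is the count scaled to the library total and its TMM factor. The libraries differed in markers of tissue layers. Summed CPM of 13 smooth muscle markers stood at 25907, 15232 and 7311 in the wild-type libraries and at 5599, 5826 and 3084 in the Muc2-/- libraries. Summed CPM of 7 markers of all epithelium ran the other way, at 9388, 14824 and 17999 in the wild-type libraries and 21403, 36922 and 22649 in Muc2-/-. Of these markers 0 were at 0 in all libraries. The titles speak of crypts, whereas muscle transcripts were abundant in all 6 libraries. In such bulk RNA, fewer cells of a type and less RNA per cell cannot be told apart.

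Between the genotypes the 9 genes can be described by 3 patterns. Rdh10, the enzyme that makes retinaldehyde, had a 1.89-fold higher mean in Muc2-/-, while Dhrs3, the enzyme that reverses that step, was lower in every Muc2-/- library than in any wild-type library. Aldh1a2 and Rarb were several-fold lower in Muc2-/-. Adh1, Aldh1a1, Aldh1a3, Rbp2 and Rara overlapped between the groups. None of these differences passed an adjusted p of 0.05 in edgeR's quasi-likelihood test, where 0 of 9 members were called. In the same fit 0.124% of all 16107 genes were called, 0.106% higher and 0.0186% lower, so a count of 0 among 9 is near the background. DESeq2 called Rdh10 higher and Aldh1a2 and Rarb lower, against 4.09% of all genes called higher and 7.41% called lower. At an unadjusted p under 0.05 edgeR had 1 member higher and 3 lower (8.23% and 12.7% of all genes). The groups did not overlap for 1 member that was higher and 3 that were lower, where 13.3% of all genes were higher without overlap and 15.2% lower. The median log2 fold change of the 9 was -0.43, beside -0.01 over all genes tested.

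**Figure D1:**
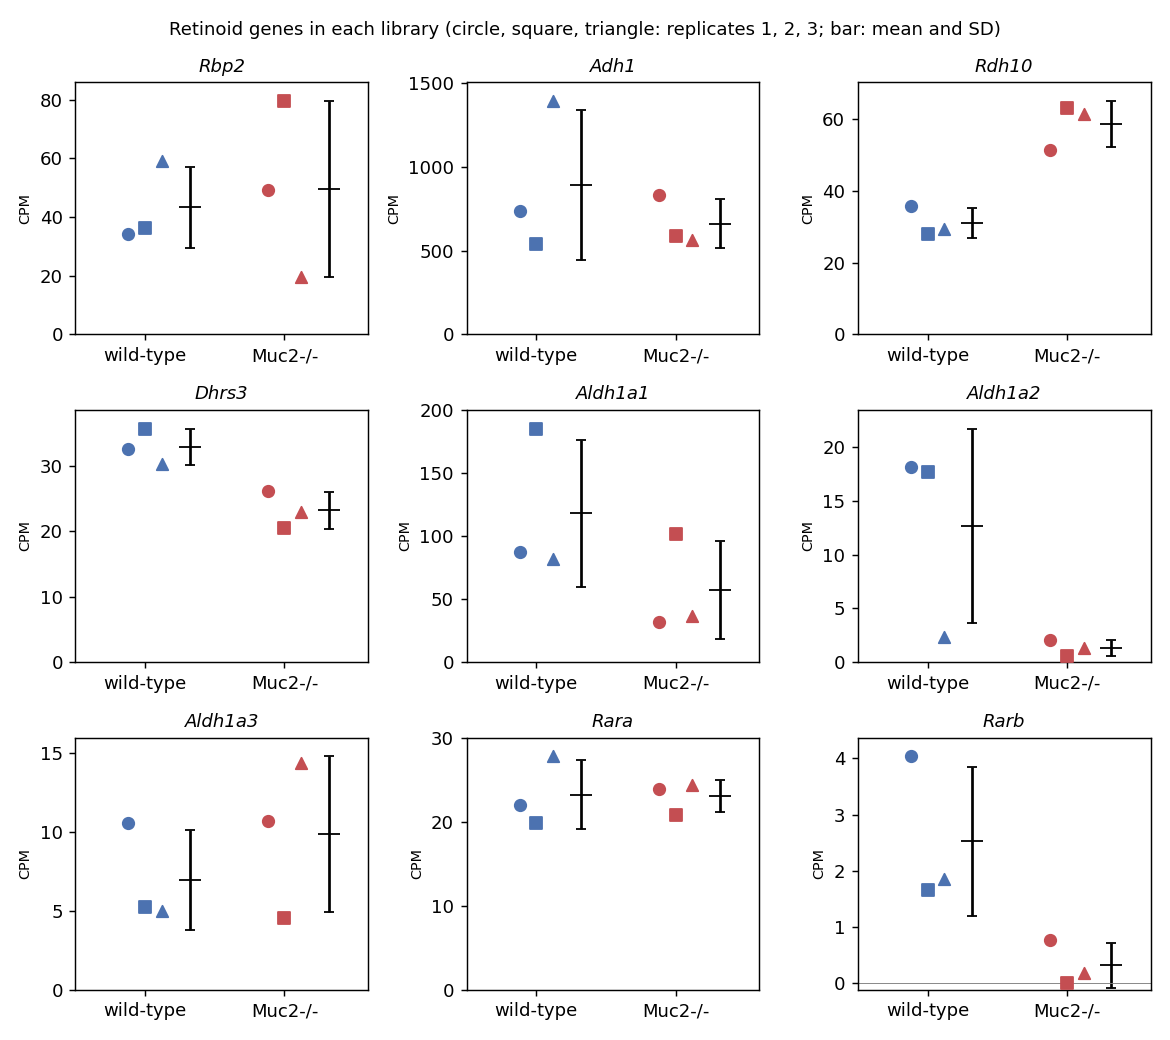
Level of each gene in CPM on a linear axis, with 1 panel for each gene; points are the 6 libraries (blue wild-type, red Muc2-/-) and the black bar is the mean and SD of 3 libraries. Rdh10, Dhrs3, Aldh1a2 and Rarb have no overlap between the groups, and the other 5 panels overlap.

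Levels per length, as the deposited FPKM (fragments scaled by gene length and library size), put Adh1 far above the rest. In wild-type the order by mean was Adh1 (397 ± 209 FPKM), Rbp2 (44.8 ± 15.5), Aldh1a1 (23.6 ± 11.5), Dhrs3 (11.1 ± 0.789), Rdh10 (7.37 ± 0.883), Aldh1a2 (5.50 ± 3.87), Rara (5.27 ± 1.06), Aldh1a3 (1.48 ± 0.644) and Rarb (0.472 ± 0.238; SD, n = 3 each). Neighbours in this order overlapped between libraries for Rbp2 and Aldh1a1, for Rdh10 and Aldh1a2, and for Aldh1a2 and Rara. In Muc2-/- the order was Adh1 (297 ± 62.7 FPKM), Rbp2 (51.9 ± 31.9), Rdh10 (14.2 ± 1.70), Aldh1a1 (11.7 ± 8.14), Dhrs3 (7.96 ± 0.884), Rara (5.30 ± 0.395), Aldh1a3 (2.14 ± 1.06), Aldh1a2 (0.567 ± 0.325) and Rarb (0.0604 ± 0.0762). There Rdh10 overlapped with Aldh1a1, and Aldh1a1 with Dhrs3. Rdh10 thus stood below Dhrs3 in wild-type and above it in Muc2-/-, and Aldh1a2 went from above Aldh1a3 by mean to below it. By mean over the 6 libraries, Adh1 lay at the 99.1th percentile of protein-coding genes with counts, and Rarb at the 21.9th.

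Rbp2 encodes the cellular retinol-binding protein of absorptive cells, which carries retinol and retinaldehyde. Its position as deposited is chromosome 9, from 98368168 to 98391834. It had 34.4, 36.3 and 59.2 CPM in the wild-type libraries, and 49.4, 79.6 and 19.7 CPM in the Muc2-/- libraries. The highest and the lowest library were both Muc2-/-, so the groups overlapped. The log2 fold change was 0.19 (SE 0.46), with an adjusted p of 0.849 in edgeR. Without Muc2-/- 2 it was -0.31, so even the sign rested on that library. Markers of proximal absorptive cells varied too, with a summed level of 275, 817 and 474 CPM in the wild-type libraries and 329, 968 and 434 CPM in Muc2-/-, and Fabp2 as the most abundant of the 13.

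Adh1, on chromosome 3 from 137966752 to 137996459, encodes an alcohol dehydrogenase that can oxidise retinol. It had 736, 540 and 1392 CPM in the wild-type libraries, and 829, 586 and 566 CPM in the Muc2-/- libraries. Wild-type 3 stood above the 5 other libraries, which lay together. Its log2 fold change was -0.43 (SE 0.38, edgeR adjusted p = 0.553), and without wild-type 3 it was 0.06. An antisense lncRNA, Gm16559, overlaps the gene but had only 72 counts over the 6 libraries.

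Rdh10, on chromosome 1 from 16175998 to 16203958, encodes the membrane-bound retinol dehydrogenase that is the main source of retinaldehyde for retinoic acid in the embryo. It had 35.7, 27.9 and 29.4 CPM in the wild-type libraries, and 51.3, 63.1 and 61.4 CPM in the Muc2-/- libraries. All Muc2-/- libraries were above all wild-type libraries, and the spread within each group was small. The means were 31.0 ± 4.16 and 58.6 ± 6.39 CPM (SD, n = 3 each), 1.89-fold higher in Muc2-/-. The log2 fold change was 0.92 (SE 0.18), with an unadjusted p of 0.00115 and an adjusted p of 0.101 in edgeR, and an adjusted p of 8.35e-04 in DESeq2. With each library left out in turn the log2 fold change stayed between 0.85 and 1.03, with an adjusted p from 0.0635 to 0.289 in edgeR.

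Summed epithelial and macrophage markers were, like Rdh10, higher in every Muc2-/- library than in any wild-type library. Epithelial markers had its order within Muc2-/- but were lowest in wild-type 1, the wild-type library with the most Rdh10. Macrophage markers had its order within wild-type but were lowest of Muc2-/- in replicate 2, where Rdh10 was highest. Summed CPM of 7 macrophage markers, led by C1qa, were 117, 58.7 and 76.3 in the wild-type libraries and 164, 128 and 179.5 in the Muc2-/- libraries, without overlap. Per 1000 CPM of summed epithelial markers, Rdh10 had 3.81, 1.88 and 1.63 CPM in the wild-type libraries and 2.40, 1.71 and 2.71 CPM in the Muc2-/- libraries. On that scale the groups overlapped. Per 1000 CPM of summed fibroblast markers it had 19.6, 24.1 and 33.9 CPM in the wild-type libraries and 50.1, 87.6 and 70.8 CPM in Muc2-/-, without overlap. Scaled to smooth muscle, to neuron and glia or to mesothelial markers, the groups could not overlap. Those sums were themselves lower in every Muc2-/- library than in any wild-type library, so these ratios add nothing. The part of any cell type in the difference was not tested.

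Dhrs3, on chromosome 4 from 144619397 to 144654779, encodes a reductase that turns retinaldehyde back into retinol and limits retinoic acid. It is itself known as a gene that retinoic acid induces. It had 32.6, 35.8 and 30.3 CPM in the wild-type libraries, and 26.2, 20.5 and 23.0 CPM in the Muc2-/- libraries. Again the groups did not overlap, with Muc2-/- 2 the lowest. The means were 32.9 ± 2.73 and 23.2 ± 2.86 CPM, 1.42-fold lower in Muc2-/-. As a log2 fold change this was -0.50 (SE 0.19), and neither edgeR (unadjusted p = 0.0286, adjusted p = 0.187) nor DESeq2 (adjusted p = 0.115) called it. Scaled per 1000 CPM of summed epithelial markers it had 3.48, 2.41 and 1.68 CPM in the wild-type libraries and 1.22, 0.555 and 1.02 CPM in Muc2-/-. On that scale the groups could not overlap, because the epithelial sum was itself higher in every Muc2-/- library. Per 1000 CPM of summed fibroblast markers it had 17.9, 30.9 and 35.0 CPM in the wild-type libraries and 25.6, 28.4 and 26.5 CPM in Muc2-/-, with overlap.

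Because Rdh10 and Dhrs3 act in opposite directions on the same pair of molecules, their transcripts were also set against each other within each library. The ratio of Rdh10 FPKM to Dhrs3 FPKM was 0.771, 0.549 and 0.681 in the wild-type libraries and 1.38, 2.17 and 1.88 in the Muc2-/- libraries. It lay below 1 in all wild-type libraries and above 1 in all Muc2-/- libraries, with means of 0.667 ± 0.112 and 1.81 ± 0.400. The ratio was formed after both genes had been seen to differ and is given without a test, and it is one of RNA, not of enzyme activity.

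**Figure D2:**
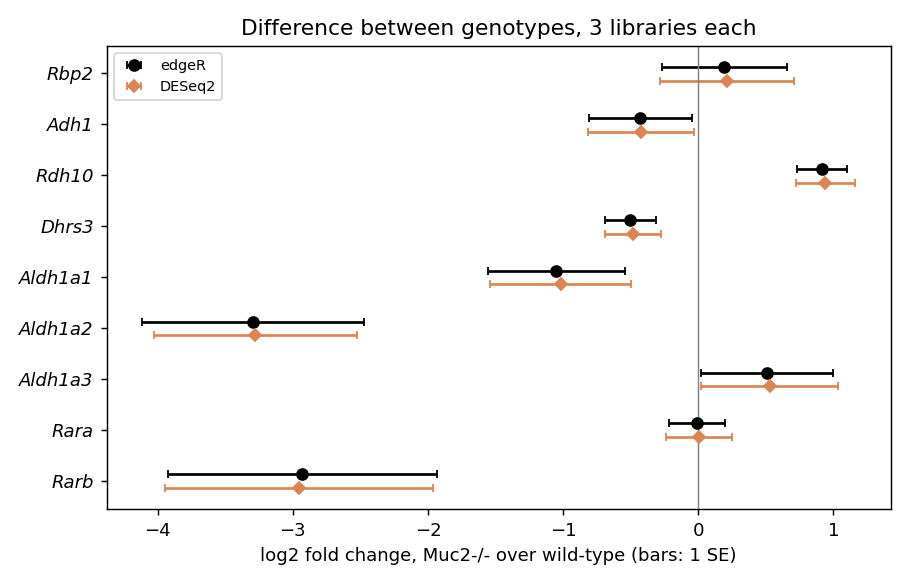
Log2 fold change of Muc2-/- over wild-type for the 9 genes (x axis) in edgeR (black circles) and DESeq2 (orange diamonds), with bars of 1 SE. Aldh1a2 and Rarb lie farthest to the left at -3.29 and -2.93 in edgeR, and Rdh10 farthest to the right at 0.92.

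The Aldh1a genes encode the retinaldehyde dehydrogenases, which make retinoic acid in the irreversible step. Aldh1a1, on chromosome 19 from 20470079 to 20620829, was the most abundant of them per length in every library. It had 87.2, 185 and 81.6 CPM in the wild-type libraries, and 32.2, 102 and 36.9 CPM in the Muc2-/- libraries. Replicate 2 was the highest in each group, and Muc2-/- 2 lay between the wild-type libraries. The log2 fold change was -1.05 (SE 0.51, edgeR adjusted p = 0.281, DESeq2 adjusted p = 0.207). It was -0.57 without wild-type 2 and -1.75 without Muc2-/- 2.

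Aldh1a2, on chromosome 9 from 71123071 to 71203525, is the retinaldehyde dehydrogenase gene of many stromal and mesothelial cells and of gut dendritic cells. It had 18.2, 17.7 and 2.29 CPM in the wild-type libraries, and 2.02, 0.529 and 1.3 CPM in the Muc2-/- libraries. Wild-type 1 and 2 stood far above all others, whereas wild-type 3 was only just above Muc2-/- 1. In counts these were 328, 339 and 48 against 34, 8 and 21. The means were 12.7 ± 9.03 and 1.28 ± 0.748 CPM, 9.90-fold lower in Muc2-/-. Its log2 fold change was -3.29 (SE 0.82), with an unadjusted p of 0.00405 and an adjusted p of 0.103 in edgeR, and an adjusted p of 6.74e-04 in DESeq2. Without wild-type 3 edgeR called it (-3.78, adjusted p = 0.0171). With each of the 5 other libraries left out in turn edgeR did not call it.

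Summed smooth muscle, enteric neuron and glia, and mesothelial markers were, like Aldh1a2, lower in every Muc2-/- library than in any wild-type library. The share of mitochondrial counts overlapped between the groups. Mitochondrial genes took 8.98%, 5.30% and 3.49% of counts in the wild-type libraries and 3.50%, 1.04% and 3.30% in the Muc2-/- libraries, lowest in Muc2-/- 2, as Aldh1a2 was. Summed CPM of 12 enteric neuron and glia markers were 568, 314 and 139 in the wild-type libraries and 98.7, 129 and 63.5 in the Muc2-/- libraries. Those of 6 mesothelial markers, which come from the outer lining of the gut, were 51.5, 26.4 and 11.5 in the wild-type libraries and 9.71, 4.96 and 4.76 in Muc2-/-. Wild-type 3 had the least of both among the wild-type libraries, as it did of Aldh1a2. Within Muc2-/- the order differed. There replicate 2 was lowest in Aldh1a2 but highest in the sums of smooth muscle markers (5826 CPM) and of neuron and glia markers (129 CPM). Single markers of both lists differed in this. Des (1380 CPM) and Vip (47.0 CPM) were highest in Muc2-/- 2, whereas Myh11 (231 CPM) and Nos1 (2.38 CPM) were lowest there. Scaled per 1000 CPM of smooth muscle markers, Aldh1a2 had 0.701, 1.16 and 0.313 CPM in the wild-type libraries and 0.362, 0.0907 and 0.421 CPM in Muc2-/-, which overlapped. Per 1000 CPM of fibroblast markers it had 9.99, 15.2 and 2.64 CPM in the wild-type libraries and 1.98, 0.734 and 1.5 CPM in Muc2-/-, without overlap. Summed markers of dendritic cells, at 23.7, 10.6 and 7.49 CPM in the wild-type libraries and 16.2, 15.9 and 26.9 CPM in Muc2-/-, did not have the order of Aldh1a2 across the groups. The part of these cell types and of the mitochondrial share in the difference was not tested.

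Aldh1a3, on chromosome 7 from 66040638 to 66077265, had 10.6, 5.26 and 4.96 CPM in the wild-type libraries, and 10.7, 4.56 and 14.3 CPM in the Muc2-/- libraries. The lowest and the highest library were both Muc2-/-. The log2 fold change was 0.51 (SE 0.49, edgeR adjusted p = 0.586), from 0.15 without Muc2-/- 3 to 0.94 without wild-type 1. Within each group the macrophage markers given beside Rdh10 were also highest in wild-type 1 and in Muc2-/- 3, and their part was not tested.

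Within the family the shares of summed FPKM shifted around a constant leader. Aldh1a1 made up 63.1%, 80.8% and 88.8% of it in the wild-type libraries and 67.0%, 94.4% and 67.0% in the Muc2-/- libraries. Aldh1a2 made up 28.7%, 16.8% and 5.43% in the wild-type libraries and 9.20%, 1.07% and 5.14% in Muc2-/-. Aldh1a3 made up 8.19%, 2.45% and 5.77% in the wild-type libraries and 23.8%, 4.51% and 27.8% in Muc2-/-. All 3 shares overlapped between the groups. The mean Aldh1a2 share was 17.0% in wild-type, or 11.1% without wild-type 1, and 5.14% in Muc2-/-, or 3.10% without Muc2-/- 1. The family's summed level was 27.1, 45.8 and 18.9 FPKM in the wild-type libraries and 9.65, 22.3 and 11.2 FPKM in Muc2-/-, with Muc2-/- 2 above wild-type 3.

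**Figure D3:**
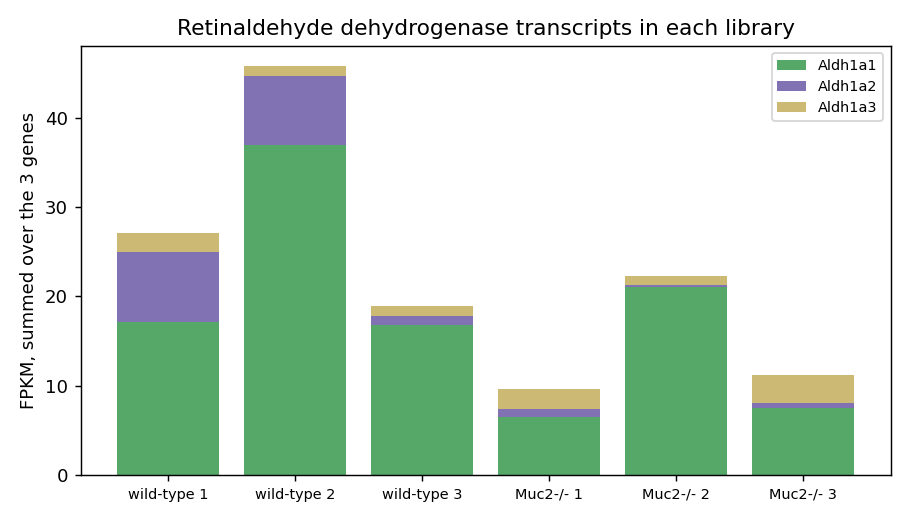
Stacked FPKM of Aldh1a1, Aldh1a2 and Aldh1a3 in each of the 6 libraries. Aldh1a1 is the largest part of every bar, and the Aldh1a2 part is clearly visible in wild-type 1 and 2, at 7.78 and 7.68 FPKM.

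Rara encodes the receptor alpha, which is expressed in most tissues. The gene is on chromosome 11 from 98818644 to 98865768. It had 21.9, 19.9 and 27.8 CPM in the wild-type libraries, and 23.9, 20.8 and 24.4 CPM in the Muc2-/- libraries. The Muc2-/- libraries lay inside the wild-type range. Its log2 fold change was -0.01 (SE 0.21, edgeR adjusted p = 0.984).

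Rarb, whose promoter repeat is printed above, encodes the receptor beta and is on chromosome 14 from 5650540 to 6038924 on the plus strand as deposited, a position and strand of another assembly than that of the promoter window. It had 4.04, 1.67 and 1.86 CPM in the wild-type libraries, and 0.774, 0 and 0.185 CPM in the Muc2-/- libraries. Counts were 73, 32 and 39 in the wild-type libraries and 13, 0 and 3 in Muc2-/-, so all wild-type libraries were above all Muc2-/- libraries at a low level. The 0 in Muc2-/- 2 allows up to 0.198 CPM, an upper limit from 3 counts that covers counting error only. The means were 2.52 ± 1.32 and 0.32 ± 0.404 CPM, 7.89-fold lower in Muc2-/-. The log2 fold change was -2.93 (SE 0.99), with an unadjusted p of 0.0189 and an adjusted p of 0.157 in edgeR, and an adjusted p of 0.0307 in DESeq2. It was -4.63 without Muc2-/- 1, and edgeR did not call it with any of the 6 libraries left out in turn (adjusted p from 0.139 to 0.421).

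Rarb overlaps Top2b on the opposite strand by 4624 bases, and the sources used here do not give the strand setting of the counting. Top2b had 1572, 1632 and 2038 counts in the wild-type libraries and 1613, 1745 and 1451 in the Muc2-/- libraries. Muc2-/- 2, with 0 Rarb counts, had 1745 of Top2b. Scaled per 1000 CPM of fibroblast markers, Rarb had 2.22, 1.44 and 2.14 CPM in the wild-type libraries and 0.756, 0 and 0.214 CPM in Muc2-/-, without overlap. Per 1000 CPM of smooth muscle markers it had 0.156, 0.110 and 0.254 CPM in the wild-type libraries and 0.138, 0 and 0.0601 CPM in Muc2-/-, with overlap. As for Aldh1a2, the part of the muscle wall in the difference was not tested.

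**Figure D4:**
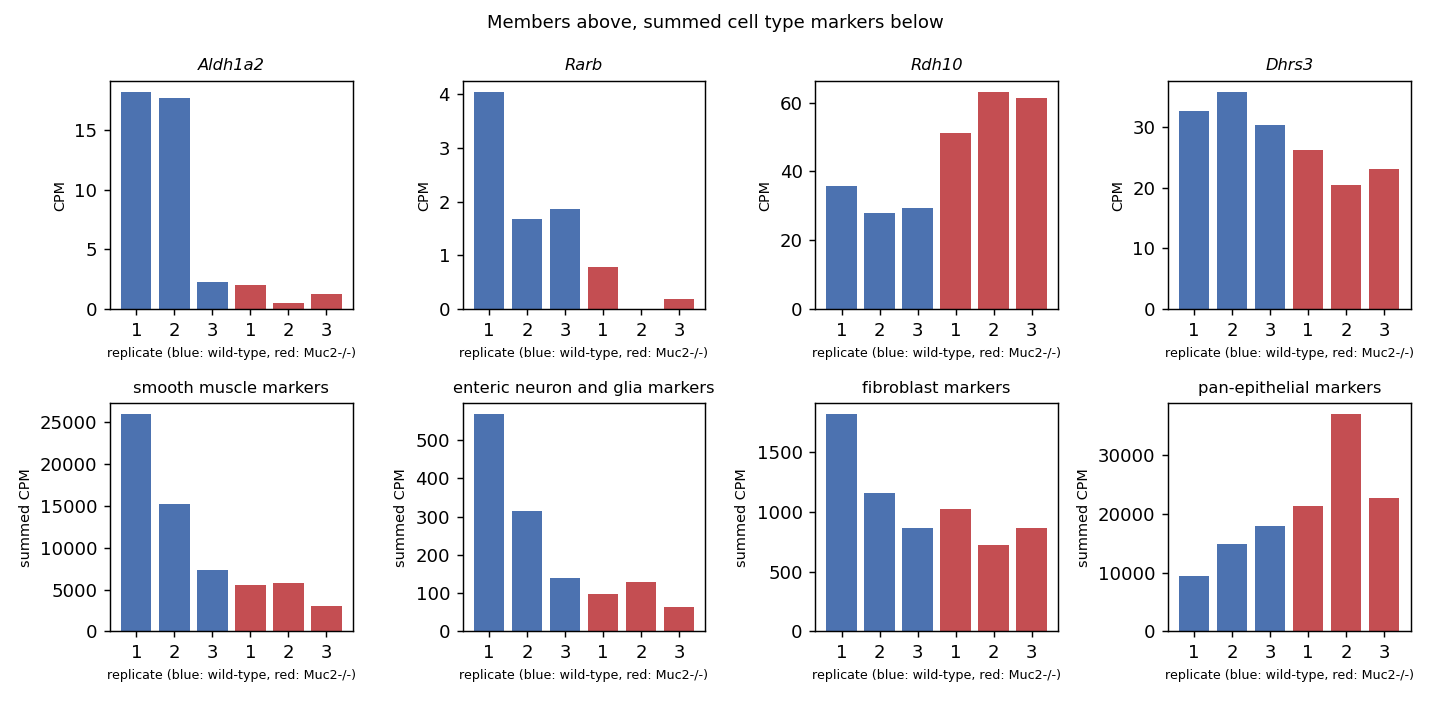
Top row, CPM of Aldh1a2, Rarb, Rdh10 and Dhrs3 in each library; bottom row, summed CPM of the smooth muscle, enteric neuron and glia, fibroblast and pan-epithelial markers (blue wild-type, red Muc2-/-, replicates 1 to 3 of each). Smooth muscle markers are highest in wild-type 1 at 25907 CPM, and epithelial markers in Muc2-/- 2 at 36922 CPM.

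The other genes of retinoid handling were read from the same edgeR fit, without the 9 members. Of the 78 found in the count table, 58 were tested, and 0 were called by edgeR at an adjusted p of 0.05. At an unadjusted p under 0.05, 4 were higher and 12 lower, where 8.23% and 12.7% of all genes were. DESeq2 called 3 higher and 4 lower, where it called 4.09% and 7.41% of all genes, shares near those of these 58. Their median log2 fold change was -0.10.

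Genes of uptake, binding and storage had no common direction: 8 of 16 tested were positive and 8 negative (median -0.13). At an unadjusted p under 0.05, 1 was higher and 3 were lower, shares near the 8.23% and 12.7% of all genes. Stra6l, which encodes a receptor for retinol-binding protein, had 9.91, 11.6 and 9.25 CPM in the wild-type libraries and 4.88, 6.01 and 4.64 CPM in the Muc2-/- libraries. Its groups did not overlap (log2 fold change -0.98, SE 0.28, adjusted p = 0.116 in edgeR and 0.0117 in DESeq2). Ces2e, a carboxylesterase gene, had 172 ± 58.4 CPM in the wild-type libraries and 338 ± 83.1 CPM in Muc2-/- (adjusted p = 0.138 in edgeR and 0.0324 in DESeq2). Lrat, the enzyme that stores retinol as esters, overlapped between the groups (4.79 ± 3.14 and 1.85 ± 0.507 CPM), as did Ces1d (39.6 ± 8.77 and 23.2 ± 7.90 CPM).

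Among the other oxidoreductases 2 of 16 tested genes were higher and 1 lower at an unadjusted p under 0.05 (median 0.09), where 8.23% of all genes were higher and 12.7% lower. Dhrs9, a retinol dehydrogenase gene of the same broad family as Rdh10, had 13.7, 27.5 and 3.29 CPM in the wild-type libraries and 62.6, 51.1 and 138 CPM in the Muc2-/- libraries. All Muc2-/- libraries were higher (log2 fold change 2.50, adjusted p = 0.118 in edgeR and 0.00311 in DESeq2), as were the epithelial and macrophage markers, whose part was not tested. Rdh16 had 37.5 ± 20.3 and 80.8 ± 25.7 CPM, with overlap, and edgeR called it higher without wild-type 3. Aox1, an aldehyde oxidase gene, had 3.26 ± 1.97 and 0.978 ± 0.621 CPM, and Rdh19 stayed near or below 1 CPM in all libraries.

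Of the genes that bind or clear retinoic acid, 4 of 9 were tested and all 4 were negative (median -0.74). Cyp26b1, a hydroxylase that breaks retinoic acid down and is induced by it, had 2.71, 1.82 and 2.67 CPM in the wild-type libraries and 0.238, 0.529 and 0.618 CPM in the Muc2-/- libraries. The groups were far apart at a low level, with 49, 35 and 56 counts against 4, 8 and 10. Its log2 fold change was -2.37 (SE 0.54, adjusted p = 0.103 in edgeR and 0.00362 in DESeq2). Cyp26a1, whose promoter repeat is printed beside that of Rarb, had 3, 0 and 1 counts in the wild-type libraries and 0 counts in all Muc2-/- libraries, too few for a comparison. Fabp5 (14.5 ± 6.11 and 6.80 ± 4.44 CPM), Cyp2s1 (79.6 ± 20.2 and 61.3 ± 20.7 CPM) and Ugt2b34 (343 ± 146 and 287 ± 70.9 CPM) overlapped between the groups.

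Of the other receptors and cofactors 10 of 11 were tested, with 4 positive, 6 negative and a median of -0.07. Rarg, the receptor gamma, had 20.2, 18.6 and 13.7 CPM in the wild-type libraries and 12.7, 8.92 and 11.5 CPM in Muc2-/- (log2 fold change -0.66, adjusted p = 0.201 in edgeR). Its groups did not overlap, and DESeq2 did not call it (adjusted p = 0.12). The coactivator genes Ncoa1 (27.3 ± 6.65 and 32.7 ± 10.8 CPM) and Ncoa3 (46.6 ± 8.28 and 54.9 ± 14.2 CPM) overlapped.

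In the list of genes known to respond to retinoic acid, 18 of 22 were tested apart from Rarb and Dhrs3, and 12 were negative (median -0.77). At an unadjusted p under 0.05, 8 were lower and 1 higher, where 12.7% of all genes were lower and 8.23% higher. Without overlap 7 were lower, where 15.2% of all genes were. The list shares genes with those above, so the counts are not separate. Cyp26b1, Lrat and Rarg are among the 8, and Cyp26b1 and Rarg also among the 7. The homeobox genes Meis1 and Meis2 had 28.0, 13.7 and 7.72 CPM and 48.1, 24.9 and 13.4 CPM in the wild-type libraries. In Muc2-/- 1, 2 and 3 they had 3.69, 2.11 and 3.83 CPM and 9.65, 4.69 and 5.75 CPM. Both were lower without overlap (adjusted p = 0.101 and 0.103 in edgeR, 3.95e-04 and 0.00124 in DESeq2), and edgeR called both without wild-type 3. Within wild-type both had the order of the smooth muscle markers. Within Muc2-/- they did not have the order of the sum, as replicate 2 had the highest sum (5826 CPM) and the least of both genes. Single markers differed, with Des highest and Myh11 lowest in Muc2-/- 2. Rarres1, a retinoic acid receptor responder gene, went the other way, with 0.388, 0.208 and 0.143 CPM in the wild-type libraries and 0.774, 4.63 and 2.22 CPM in Muc2-/- (log2 fold change 3.34, adjusted p = 0.103 in edgeR and 0.00271 in DESeq2). The list holds genes that smooth muscle and stroma also express, and their part was not tested.

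**Figure D5:**
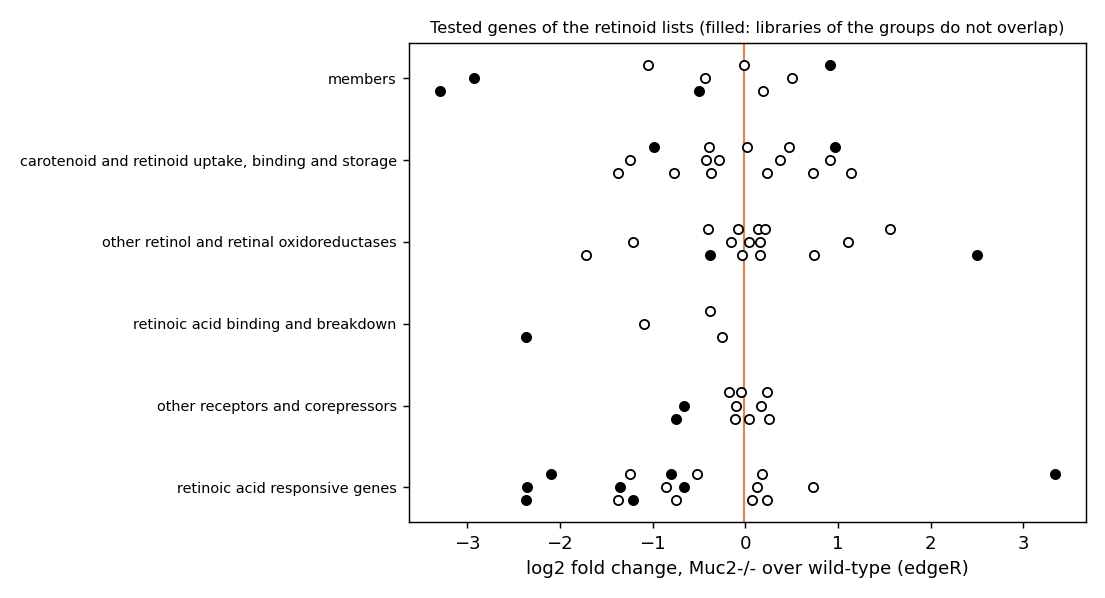
Log2 fold change in edgeR (x axis) of each tested gene of the retinoid lists, 1 row for each list, with the 9 members in the top row and left out of the others; filled points have no overlap between the groups, and the orange line is the median of all genes tested, -0.01. The responsive genes spread to the left, with a median of -0.77, apart from Rarres1 at 3.34.

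To describe the shape of each member's values over the 6 libraries, tested protein-coding genes averaging 5 CPM or more were ranked by the root mean square difference of log2 CPM after each gene was centred on its own mean. The gene nearest to Rdh10 was Sh3bgrl3, at a difference of 0.080, and the nearest to Dhrs3 was Fam76a, at 0.033. Nearest to Aldh1a2 were Nos1 (0.35), which is also one of the enteric neuron markers, and the kinesin gene Kif5a (0.35). Nos1 had 72.1, 46.5 and 11.6 CPM in the wild-type libraries and 8.51, 2.38 and 7.91 CPM in the Muc2-/- libraries, so it shared the low value of Aldh1a2 in wild-type 3. Nearest to Rarb were Mptx1 (0.39) and Fmo2 (0.40), and nearest to Adh1 was Nxpe4 (0.12). Nearest to Aldh1a3 were Cytip (0.18) and Spi1 (0.19), to Aldh1a1 Otc (0.23), to Rbp2 H2aw (0.23) and to Rara Asb3 (0.049). Among the members themselves, the closest pair was Dhrs3 and Rara, at 0.335. Aldh1a2 and Rarb were also each other's nearest, but at 0.96 they lay farther from their nearest member than any other member did.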

How the data were processed

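Polyadenylated RNA of 6 libraries was sequenced as paired-end reads, per the labels' protocols. The authors deposited counts per gene (whole numbers, not normalized) and FPKM. The submitters' processing notes name the build mm10 and, without roles, the tools featureCounts 1.5.0-p3, HISAT2 2.0.5, DESeq2 1.20.0 and StringTie 1.3.3b. The deposited FPKM equal counts divided by the listed length and a scaled library total, 0.860 to 1.14 times the sum of counts. Columns were tied to samples by library name. Of 52081 gene identifiers shared with GENCODE M21 (GRCm38), 51497 agreed in width but only 1494 in position, so the deposited gene coordinates are of another assembly and are printed unchanged. The 435 unnamed loci (0.128% to 0.171% of counts) were kept.

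The test was edgeR 4.0.16 (R 4.3.3): default filter (minimum count 10, total 15), TMM factors, quasi-likelihood fit on genotype alone, Benjamini-Hochberg adjustment over 16107 genes at 0.05. SD are over 3 libraries. The procedure was tested on simulated counts, with changes put into 200 genes of at least 5 CPM. It called 19.4% of the 2-fold changes, 83.6% of the 4-fold and 98.5% of the 16-fold changes. Of its 139 calls 5 were false. Most 2-fold changes were thus missed at this threshold in the simulated counts. The share of changes recovered in the 6 libraries themselves was not tested. There edgeR called 20 of 16107 genes. Aldh1a2 (9.90-fold lower in Muc2-/-) and Dhrs9 (log2 fold change 2.50) were not called. DESeq2 1.42.0, limma 3.58.1 and other settings were alternatives. Log2 CPM for likeness used a prior count of 2. Replicates differed by 27.3 to 162 in chi-square per degree of freedom and were kept apart. Members, lists and tests were chosen with earlier results of these data known. Genes named from a list were those called or, failing that, the 4 with the smallest p. One gene chosen by this rule is not reported here.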

Additional observations from a re-analysis of the deposited data

How the results depend on the processing

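The count of members called, 0 in edgeR with all libraries, was 2 with no filter on low counts (Rdh10 higher, Aldh1a2 lower), 3 in DESeq2 and 1 with the replicate number as a block (Aldh1a1 lower, log2 fold change -1.15, adjusted p = 0.0301). With 1 library left out it ran from 0 to 1, the 1 being Aldh1a2 without wild-type 3. For the other retinoid genes the count was 5 of 70 tested, 7 of 58 and 2 of 58 in those settings. With 1 library left out it was 0 to 3, the 3 being of 61 without wild-type 3. For all genes, 20 of 16107 in the fit of all libraries, it was 1199 of 26830 with no filter, 1852 of 16107 in DESeq2 and 673 of 16107 with the block. Among 16107 genes it was also 8 with no composition factors, 13 in limma-voom, and 52 and 51 in limma on log2(FPKM + 1) and log2(FPKM + 0.1). In limma with no filter it was 3 of 26830. With 1 library left out it ran from 0 to 1226 (1226 of 16788 without wild-type 3, 0 of 16550 without wild-type 2). Without wild-type 1 and Muc2-/- 2 it was 1 of 16232. The cause of these differences was not tested. Same-numbered libraries deviated together at correlations of 0.094, 0.28 and 0.061, and libraries of unlike number at -0.25 to 0.075. The best partner of wild-type 1 and of wild-type 2 was the Muc2-/- library of the same number. That of wild-type 3 was Muc2-/- 1 (0.075). With 3 libraries in each group these values cannot decide whether same-numbered libraries were paired. The main fit used genotype alone.

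Rdh10, Dhrs3, Aldh1a1, Aldh1a2, Aldh1a3 and Rarb kept their sign in all 19 alternatives. The log2 fold change of Rara, near 0, turned positive with RLE factors (0.0060), in DESeq2 (0.0059) and limma-voom (0.00050), in limma on log2(FPKM + 1) with and without a filter (0.018 each) and log2(FPKM + 0.1) (0.023), with the block (0.0017), without wild-type 3 (0.15), without Muc2-/- 2 (0.08) and without wild-type 1 and Muc2-/- 2 (0.018). That of Rbp2 turned negative with no composition factors (-0.014), without Muc2-/- 2 (-0.31) and without wild-type 1 and Muc2-/- 2 (-0.47), and that of Adh1 positive without wild-type 3 (0.058). With 1 library left out, Adh1 ran from -0.69 to 0.058, Rbp2 from -0.31 to 0.59 and Rara from -0.11 to 0.15. Shares within the Aldh1a family do not depend on library scaling. Depth limits Rarb and Cyp26a1 most.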
